A study of Homo sapiens with 12 samples.

Results

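The mutation profile of the long noncoding RNA SLERT was compared between a denatured control (DC) and a DMSO control at each nucleotide of the RNA. The comparison used 4 of the 12 libraries of the series, 2 of the denatured control and 2 of DMSO, and all 694 nucleotides of SLERT that the deposited tables list. A nucleotide was kept when its effective depth, the number of reads that could show a mutation there, was at least 1000 in all 4 libraries. This kept 693 nucleotides, and the last, A694, had a depth of 0. SLERT held 125 adenines, 197 cytosines, 222 guanines and 150 uracils.

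SLERT is a nucleolar RNA that ends in a box H/ACA small nucleolar RNA (snoRNA) on each side and takes part in RNA polymerase I transcription through the helicase DDX21. SHAPE-MaP probes RNA structure with a reagent that attaches to the ribose of nucleotides that are free to move, and a reverse transcriptase supplied with manganese reads through the adduct and leaves a mutation in the cDNA. The DMSO control measures the mutations that arise without reagent, from the enzyme's own errors, from natural base modifications and from sequence differences. A denatured control is made to measure how readily each nucleotide is read as mutated once the RNA is unfolded, and it serves as the divisor when reactivities are scaled.

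All libraries came from PA1, an established human ovarian teratocarcinoma cell line, with no genotype change or other agent named. DMSO libraries came from cells given solvent alone. The denatured control was RNA held in formamide at 95 °C, and the labels do not say whether it then received the reagent NAI (NAI libraries, from cells exposed at 37 °C to 200 mM of it over 10 minutes, entered the fit but are not the subject here). Reverse transcription used SuperScript II, 6 mM Mn2+ and primers for SLERT, followed by nested PCR, so the libraries hold PCR products of the SLERT sequence. The labels do not say whether replicates 1 and 2 were separate cultures. The p-values reflect the scatter of 2 libraries a condition, NAI included, with the estimate in part shared over nucleotides. That scatter could be technical alone. The replicates of a condition differed by more than counting noise, with a chi-square per nucleotide of 12.2 between the DC libraries and 7.57 between the DMSO libraries.

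The labels contradict each other. Libraries whose titles say DC carry a treatment text that names DMSO alone, those titled DMSO carry a text that names NAI, and those titled NAI carry a text that names denaturation. The column names of the deposited tables (untreated, denatured, modified) set the condition of each value here and match the titles. Every direction below rests on those names. Median effective depth was 462245 reads per nucleotide in DMSO replicate 1, 117237 in DMSO replicate 2, 757883 in DC replicate 1 and 195922 in DC replicate 2, and no kept nucleotide had fewer than 79870 reads in any of them. At those medians a count of 3 mutations is a rate of between 0.000396% and 0.00256%. Reads amplified by PCR and counted without molecular identifiers may be copies of each other, so such floors cover counting error only.

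Changes were uneven along the RNA, and the 2 longest unbroken stretches, of opposite kinds, are shown with the 10 nucleotides on each side. Capitals mark every nucleotide called higher in the denatured control, and letters run 5′ to 3′. The first sequence is centred on nucleotides 249 to 270, all 22 of which were called higher. The second is centred on nucleotides 467 to 484, none of which was.
SLERT 239 to 280: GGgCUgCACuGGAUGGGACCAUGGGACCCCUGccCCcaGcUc
SLERT 457 to 494: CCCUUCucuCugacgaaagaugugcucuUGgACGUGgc

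The denatured control carried more mutations than DMSO over most of SLERT. Summed mutations over summed effective depth gave 0.714% and 0.690% in DMSO replicates 1 and 2 and 0.862% and 0.842% in the denatured control. Both denatured libraries lay above both DMSO libraries. The difference between libraries of the same number was 0.150 percentage points ± 0.0028 (SD, n = 2). The ratio was 1.21 in replicate 1 and 1.22 in replicate 2. That SD pairs the libraries by their number. Within a condition the rates spread more, with an SD of 0.0169 in DMSO and 0.0141 in the denatured control. An exact test of 2 libraries against 2 cannot go below p = 0.33, so library rates were given without a test.

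By nucleotide, 428 of 693 (61.8%) passed the edgeR quasi-likelihood test with a higher mutation rate in the denatured control and 15 (2.16%) with a lower rate, at a Benjamini-Hochberg adjusted p below 0.05. These counts take the rates at face value. TMM scaling, which sets the typical nucleotide to no change, took the median log2 change of all nucleotides to -0.00068, from 0.36, and left 142 higher and 118 lower. Median-of-ratios scaling took it to 0.03 and left 164 higher and 95 lower. The depth is known for every nucleotide, so rates were compared without such scaling, and classes of nucleotides are given below relative to the median of all of them. Leaving out a library changed the lower calls most: 5 were made when DMSO replicate 1 was dropped and 6 when DC replicate 2 was, but 23 or 24 when NAI replicate 1 or 2 was.

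The first and last stretches of SLERT had almost no mutations in any library. They ran from nucleotide 1 to 20 and from 675 to 694, and no rate in their 39 kept nucleotides exceeded 0.0516%. The positions of the primers on SLERT are not given here, so whether these stretches lie under a primer was not tested. In these stretches 4 nucleotides (10.3%) were called higher and 2 lower. The remaining 654 nucleotides carried the profile, with 424 called higher (64.8%) and 13 lower (1.99%). Among them 546 (83.5%) had both denatured libraries above both DMSO libraries, and 29 (4.43%) had both below.

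Most rises were modest. Outside the terminal stretches the log2 change had a median of 0.37, a fold of 1.29, and the middle range between the quartiles was 0.18 to 0.61. Of the nucleotides called higher there, 178 rose more than 1.5-fold and 42 more than 2-fold. The change had the same sign in both replicates at all but 39 nucleotides, with 578 up and 37 down in both. Across the 654 nucleotides, which share libraries and are not independent, the log2 changes of the replicates had a Spearman's rho of 0.853 and a Pearson's r of 0.895, and the median absolute difference between replicates was 0.11.

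The 4 bases differed in their starting rate and in their change. Reverse transcriptase misreads bases unequally, and adenine and uracil were the bases read with most mutations in both conditions. The median DMSO rate of the 110 adenines outside the terminal stretches was 0.976% in replicate 1 and 0.907% in replicate 2, and in the denatured control it was 1.13% and 1.10%. The 139 uracils had 0.924% and 0.892% in DMSO and 1.135% and 1.10% in the denatured control. The 215 guanines, at 0.375% and 0.358%, reached 0.541% and 0.509%, and the 190 cytosines, lowest throughout, went from 0.287% and 0.278% to 0.433% and 0.425%. For each of the 4 bases both denatured medians lay above both DMSO medians.

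**Figure D1:**
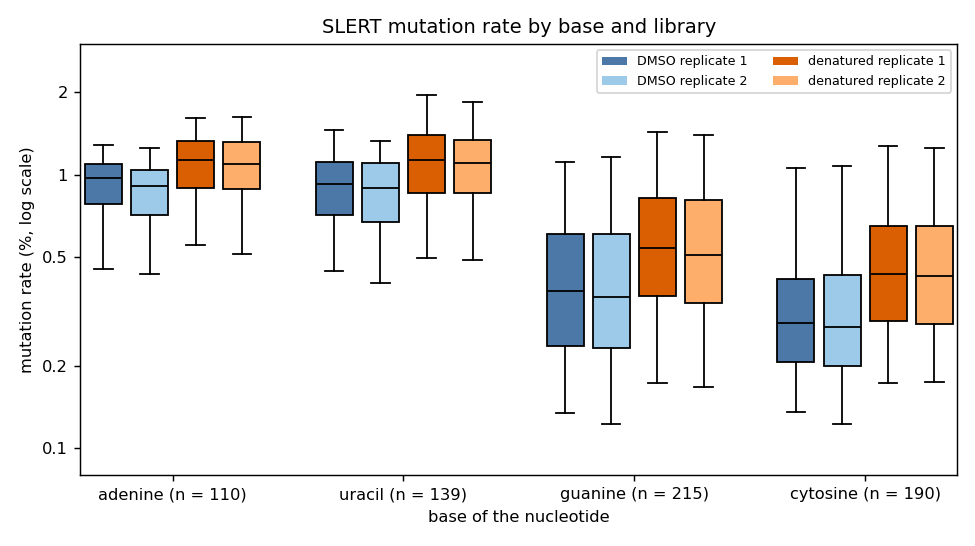
Mutation rate (%, log scale) of SLERT nucleotides outside the terminal stretches, by base, in each of the 4 libraries; boxes span the quartiles with the median as a line, and whiskers run from the 5th to the 95th percentile. Each denatured median lies above both DMSO medians of its base, and cytosines and guanines lie below adenines and uracils in every library.

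In proportion, cytosines rose most and adenines least. The median log2 change of cytosines was 0.51 and 0.54 in the 2 replicates, that of guanines 0.40 and 0.43, that of uracils 0.25 and 0.30, and that of adenines 0.21 and 0.28. The median over all 654 was 0.37 and 0.39. Cytosines exceeded adenines by 0.28 ± 0.037 (SD, n = 2) and guanines by 0.10 ± 0.0027, both larger than the spread between replicates. Uracils exceeded adenines by 0.034 ± 0.020, with the replicate values 0.049 and 0.020. The excess of the median adenine rate over the median cytosine rate thus narrowed from 3.33-fold ± 0.096 in DMSO to 2.59-fold ± 0.015 in the denatured control.

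In percentage points uracils and adenines gained more than guanines and cytosines. Uracils gained a median of 0.176 and 0.202 points, adenines 0.164 and 0.173, guanines 0.132 and 0.127, and cytosines 0.123 and 0.119. Calls followed the proportional order: 132 cytosines (69.5%), 141 guanines (65.6%), 85 uracils (61.2%) and 66 of the 110 adenines were called higher, beside 64.8% of all nucleotides. Of the 42 nucleotides that rose more than 2-fold, 21 were guanines, 15 cytosines, 5 uracils and 1 an adenine. The 13 called lower were 5 adenines, 3 guanines, 3 uracils and 2 cytosines.

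A few nucleotides of very high rate weighed on the rates summed by base. A148 and G529 alone held 19.3% and 19.8% of all SLERT mutations in the DMSO libraries and 13.5% and 13.4% in the denatured libraries. With A148 the summed rate of adenines was 1.06 and 1.08 times that of DMSO, and without it 1.23 and 1.27 times. Without G239 and G529 the ratio for guanines went from 1.26 and 1.24 to 1.35 and 1.35. Cytosines, which have no such site, stood at 1.449 and 1.502, above the other bases with and without these sites.

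The proportional rise was smaller where the DMSO rate was higher. Nucleotides were divided into 4 groups of 163 or 164 by their rate in DMSO replicate 1, and the change was read in replicate 2, whose libraries did not set the groups. From the lowest to the highest group the median log2 change was 0.55, 0.49, 0.30 and 0.27. The rise in percentage points ran the other way, with 0.0856, 0.155, 0.159 and 0.224. The lowest group had a median DMSO rate of 0.193% in replicate 2 and the highest 1.08%. Base and starting rate overlap, since cytosines and guanines have the low rates, and the part of each in the change was not tested.

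The 3′ neighbour is the base that the enzyme copies immediately before the nucleotide itself. Nucleotides followed by a uracil changed most: their median log2 change was 0.58 and 0.54, and 103 of 138 (74.6%) were called higher. Those followed by a cytosine had 0.37 and 0.39 with 67.9% called. Those followed by a guanine had 0.31 and 0.32 with 63.3%, and those followed by an adenine 0.30 and 0.35 with 50.5%. These classes differ in their own bases, and the part of that in the change was not tested. Of the 215 nucleotides before a guanine, 77 were uracils, 76 guanines, 48 adenines and only 14 cytosines. Medians by base and 3′ neighbour are given below. Nucleotides before an adenine also had the lowest rates in DMSO, 0.232% and 0.214%. On the 5′ side the range was narrower, from 0.31 and 0.35 after a guanine to 0.44 and 0.48 after a uracil, where 72.5% were called higher.

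**Figure D2:**
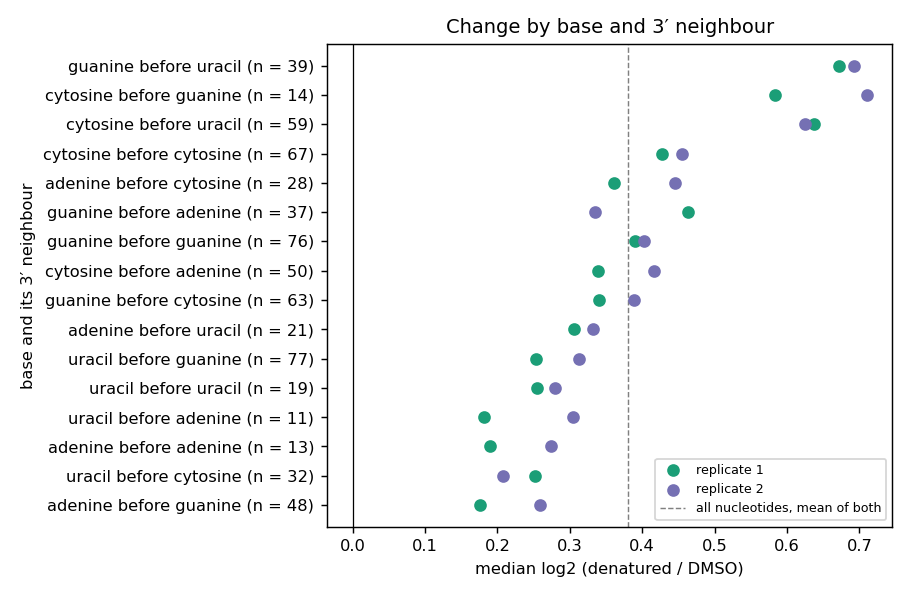
Median log2 ratio of the denatured to the DMSO mutation rate for each of the 16 combinations of a base and its 3′ neighbour outside the terminal stretches, in replicates 1 and 2 (points); the dashed line is the mean of the replicate medians over all nucleotides, 0.38. Guanine before uracil, cytosine before uracil and cytosine before guanine lie above it in both replicates, and adenine before guanine and uracil before cytosine below it.

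Guanines, cytosines and adenines all had a larger median change before uracil than over all nucleotides of their base. Guanines before uracil had a median log2 change of 0.67 and 0.69, with 31 of 39 called higher, and cytosines before uracil 0.64 and 0.62, with 47 of 59. Cytosines before guanine, the CpG steps, had 0.58 and 0.71, with 12 of 14. Adenines before uracil had 0.31 and 0.33, beside 0.21 and 0.28 for all adenines. Adenines before cytosine changed more, with 0.36 and 0.44 and 20 of 28 called higher. Uracils before uracil had 0.25 and 0.28, beside 0.25 and 0.30 for all uracils. The lowest were adenines before guanine, with 0.18 and 0.26, and uracils before cytosine, with 0.25 and 0.21.

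Words of 3 bases, named by their central nucleotide and chosen after their values were seen, spread further. The 10 guanines in AGA had medians of 0.99 and 0.85, the 10 cytosines in UCU 0.77 and 0.96, and the 13 guanines in UGU 0.85 and 0.81. Within a word the members varied widely: guanines in UGU ranged in log2 change from -0.12 to 1.74, those in AGA from 0.12 to 1.65 and cytosines in UCU from -0.26 to 1.90. At the other end stood the 11 uracils in GUC, with 0.07 and 0.12, and the 8 uracils in UUG, with 0.17 and 0.08.

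Runs of a base differed little in their share of calls. Of nucleotides that stood alone 242 of 358 were called higher, against 96 of 160 in runs of 2, 58 of 90 in runs of 3 and 28 of 46 in runs of 4 or more, beside 64.8% of all nucleotides. Only 1 of 9 adenines in runs of at least 3 was called higher and 3 were called lower, and those 3 are neighbours, A472, A473 and A474. All 10 adenines that follow a uracil were called higher, beside 66 of all 110 adenines; these 2 small adenine classes were picked from many for their extreme shares. By G or C among the 10 nearest neighbours, the share called higher was 50.7% of 67 nucleotides with at most 4, 64.3% of 112 with 5, 62.6% of 203 with 6, 73.3% of 180 with 7 and 64.1% of 92 with 8 or more, so it did not rise steadily.

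The snoRNA ends and the middle of SLERT changed to a similar degree. By RefSeq gene lengths, the SNORA5C part spans nucleotides 1 to 137, the middle 138 to 560 and the SNORA5A part 561 to 694. These box H/ACA RNAs fold as hairpins joined by a hinge and guide pseudouridylation. Outside the terminal stretches the median log2 change was 0.36 and 0.37 in the SNORA5C part, 0.39 and 0.39 in the middle, and 0.31 and 0.39 in the SNORA5A part. Called higher were 86 of 117 (73.5%), 267 of 423 (63.1%) and 71 of 114 (62.3%). All 13 nucleotides called lower lay in the middle, which also held 33 of the 42 that rose more than 2-fold, beside 423 of the 654 nucleotides.

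**Figure D3:**
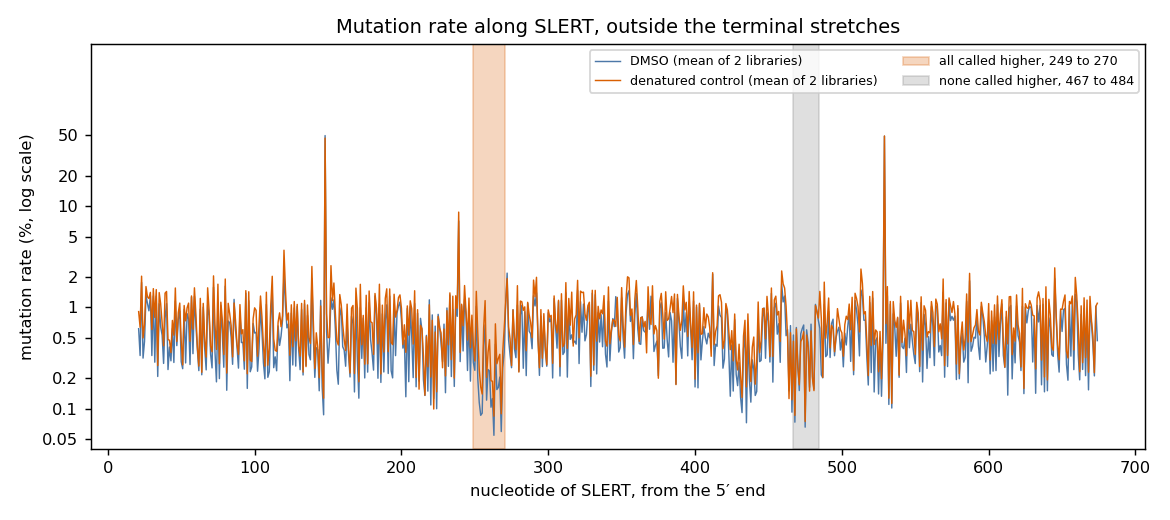
Mutation rate (%, log scale) at each nucleotide of SLERT outside the terminal stretches, counted from the 5′ end, as the mean of 2 DMSO libraries and of 2 denatured libraries. A148 and G529 stand near 50% in both conditions; the shaded stretches are nucleotides 249 to 270, all called higher, and 467 to 484, none called higher.

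On a finer scale the change varied along the middle. Windows of 51 nucleotides were scanned, and the median log2 change was above 0 in both replicates in all 604, from 0.059 to 0.55 in replicate 1 and from 0.17 to 0.57 in replicate 2. The 3 highest windows without overlap were centred on nucleotides 267 (0.55 and 0.54, 40 called higher), 171 (0.52 and 0.57, 41 called) and 423 (0.55 and 0.50, 38 called). The 3 lowest were centred on 471 (0.059 and 0.17, 22 called higher and 5 lower), 216 (0.25 and 0.25, 29 called) and 295 (0.30 and 0.28, 24 called). Replicates shared these peaks and troughs, while toward the 3′ end replicate 2 lay above replicate 1. In the last of 7 segments, nucleotides 596 to 674, the medians were 0.31 and 0.41.

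**Figure D4:**
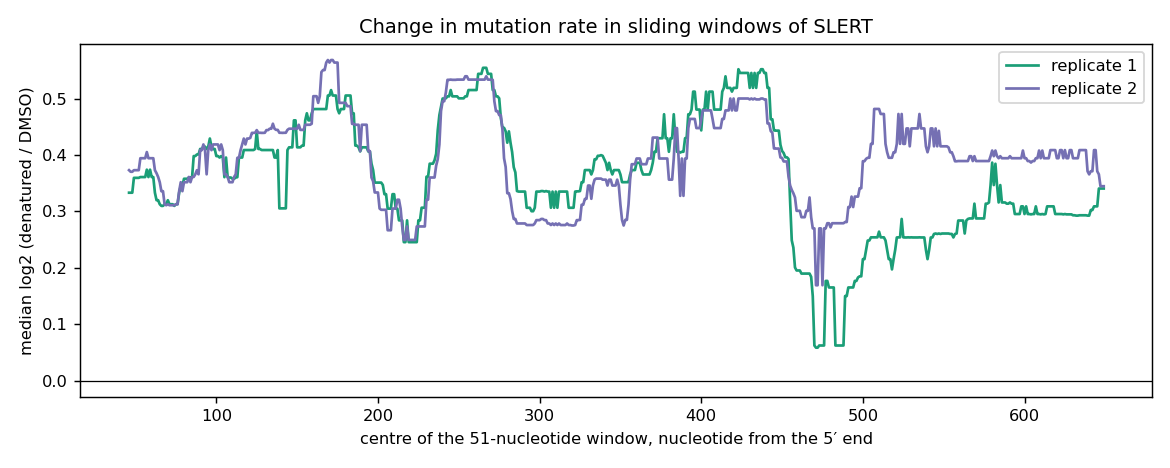
Median log2 ratio of the denatured to the DMSO mutation rate in 51-nucleotide windows along SLERT, by the centre of the window, for replicates 1 and 2. Both lines peak near 171, 267 and 423 and are lowest near 471, and every window lies above 0.

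The window centred on 267 takes in the stretch from 249 to 270 printed above, where all 22 nucleotides rose. Their log2 changes ran from 0.32 to 1.496, and the stretch held 15 G or C. Its median rate was 0.196% and 0.207% in DMSO and 0.323% and 0.340% in the denatured control. The median DMSO rates of all nucleotides were 0.520% and 0.498%, and the median gain of 0.124 and 0.127 points lies below the 0.138 and 0.148 of all nucleotides. A second unbroken stretch of rises, from 100 to 113 in the SNORA5C part, held 14 nucleotides and had a gain of 0.273 and 0.242 points. Both stretches were picked for their calls, so their counts are a description.

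The stretch from 467 to 484, the second sequence printed above, lay at the other extreme. Its median rate was 0.573% and 0.507% in DMSO and 0.490% and 0.432% in the denatured control, with median log2 changes of -0.14 and -0.12. Of its 18 nucleotides 11 were below DMSO in both replicates, beside 37 of all 654. Called lower were 3, A472 to A474, beside 1.99% of all. This stretch too was picked for its calls, so its low values are a description. The stretch held 8 G or C, fewer in proportion than the stretch that rose. G or C made up 54.9%, 60.8% and 68.6% of the low windows centred on 471, 216 and 295. In the 3 highest windows the share was 66.7% to 70.6%. The change turned sharply at the 3′ edge of the stretch, since the next nucleotides, U485 and G486, were among the large rises. U485 had 0.670% and 0.572% in DMSO and 1.49% and 1.39% in the denatured control, or 1.20 on the log2 scale (SE 0.099, edgeR adjusted p = 2.14e-07). With NAI, measured in other libraries but read here against the same DMSO libraries, the stretch had 0.690% and 0.701%.

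The largest rises outside the terminal stretches were at 6 guanines and 4 cytosines. Their sequences are printed with 10 nucleotides on each side and the changed nucleotide in capitals, in order of size.
C283: cccagcucauCucugccaccc
G486: augugcucuuGgacguggccu
G656: cccuguuccuGugucccaggc
G170: ggguggaugaGgaggcaggcc
G613: cacuggcccaGaaggcugcca
G385: gaaggugcugGugaugcuggc
C424: cgugcccuugCugcgggccau
C630: gccacagaaaCacugugacuc
C205: uguguuuaguCagcucaggcc
G522: ccuuuggacaGaacgguggag

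C283, in the middle of SLERT, had 0.249% and 0.251% in DMSO and 0.922% and 0.946% in the denatured control, or 1.90 on the log2 scale (SE 0.11, edgeR adjusted p = 6.68e-09). G486 had 0.236% and 0.194% in DMSO and 0.771% and 0.788% in the denatured control, a change of 1.84 (SE 0.12). At both, the denatured libraries lay more than 3-fold above the DMSO libraries with no overlap. G656, in the SNORA5A part, went from 0.300% and 0.358% to 1.06% and 1.10%, a change of 1.74 (SE 0.079, edgeR adjusted p = 8.16e-10). G170 went from 0.315% and 0.278% to 0.951% and 0.992%, a change of 1.70 (SE 0.092). These 4, picked for the size of their rise, differed far more between conditions than between replicates.

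G613 of the SNORA5A part started lower, at 0.148% and 0.123%, and reached 0.453% and 0.416%, a log2 change of 1.65 (SE 0.13). G385 was the least even of the 10, with 0.344% and 0.229% in DMSO and 1.08% and 0.690% in the denatured control, a change of 1.60 (SE 0.21, edgeR adjusted p = 1.31e-05). In it, as in the others and in 83.5% of all 654 nucleotides, both denatured values exceeded both DMSO values. C424, C630, C205 and G522 had changes between 1.51 and 1.52, with edgeR adjusted p-values of at most 3.25e-06. The next nucleotide in rank, U252 at 1.496, lay just outside the named set. All 10 kept their call in each of the 18 alternative fits, TMM scaling and single libraries left out included.

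Some of these sites were also strong with NAI and others were not. C630 had 0.836% ± 0.083 (SD, n = 2) in the denatured control and 7.11% ± 0.49 with NAI, and G656 1.08% ± 0.028 and 6.95% ± 0.046. G486, with 0.779% ± 0.012 in the denatured control, had 0.751% ± 0.0086 with NAI, and C424 had 0.381% ± 0.030 and 0.288% ± 0.078. By base, the median log2 change of NAI over DMSO was 0.23 and 0.33 for adenines, 0.25 and 0.35 for uracils, 0.19 and 0.24 for cytosines and 0.18 and 0.23 for guanines. The denatured changes given above, read against the same DMSO libraries, put cytosines and guanines first instead.

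The largest fold of all lay in the 5′ terminal stretch, at rates near the floor. Whether that stretch lies under a primer was not tested. A19 had 14 and 7 mutations in the DMSO libraries and 372 and 118 in the denatured libraries, or 0.00191% and 0.00374% against 0.0366% and 0.0516%, and 4.18 on the log2 scale (SE 0.36, edgeR adjusted p = 2.87e-07). C18 had 9 and 1 mutations against 200 and 16, a log2 change of 3.81 (SE 0.58), and both kept their call in all 16 alternative fits that held them. G20 had 10 and 5 mutations in DMSO and 118 and 4 in the denatured control, so its rise was seen in DC replicate 1 alone. At the 3′ end U692 was called higher from 12 mutations in DC replicate 1 and 0 in the other 3 libraries, and A691 lower from 8 in DMSO replicate 1 and 0 in the other 3.

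At the 4 largest falls the denatured rate was between 0.51 and 0.62 of the DMSO rate. Their sequences are printed in the same way.
G346: ccuggaguugGuggagcacuu
C370: ccccaaugagCugcggaaggu
G411: agagccggcgGuccgugcccu
G367: uggccccaauGagcugcggaa

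G346 had 1.22% and 1.33% in DMSO and 0.669% and 0.625% in the denatured control, or -0.97 on the log2 scale (SE 0.11, edgeR adjusted p = 3.46e-06). C370 had 1.29% and 1.29% in DMSO and 0.669% and 0.683% in the denatured control, a change of -0.93 (SE 0.098, edgeR adjusted p = 2.10e-06). Both stood above the DMSO medians of their bases, and the denatured libraries brought them nearer to those medians. G411 fell from 0.572% and 0.609% to 0.370% and 0.287%, a change of -0.83 (SE 0.15), and G367 from 0.600% and 0.544% to 0.376% and 0.333%, a change of -0.69 (SE 0.14). None of these sets of values overlapped, which the choice of called falls favours. Of all 654 nucleotides, 29 (4.43%) had both denatured libraries below both DMSO libraries. The 4 falls kept their call in each of the 18 alternative fits.

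Of these, G346, C370 and G411 have a guanine before and a uracil after them. A following uracil was also the neighbour of the largest typical rise. Of the 14 guanines in GGU 10 were called higher and 2 lower. Of the 21 cytosines in GCU 17 were called higher and 1 lower. With NAI, G346 had 1.31% ± 0.19 (SD, n = 2) and C370 0.994% ± 0.046. The other 9 nucleotides called lower fell by less, from -0.33 at A473 to -0.08 at A148, with C494, A472, U465, A474, A223, U145 and U221 between. A473 went from 0.674% and 0.555% to 0.514% and 0.465% (edgeR adjusted p = 0.0139). Each of these 9 lost its call in at least 3 of its alternative fits; A473 was not called without DMSO replicate 1 (edgeR adjusted p = 0.253) or without DC replicate 2 (edgeR adjusted p = 0.098).

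**Figure D5:**
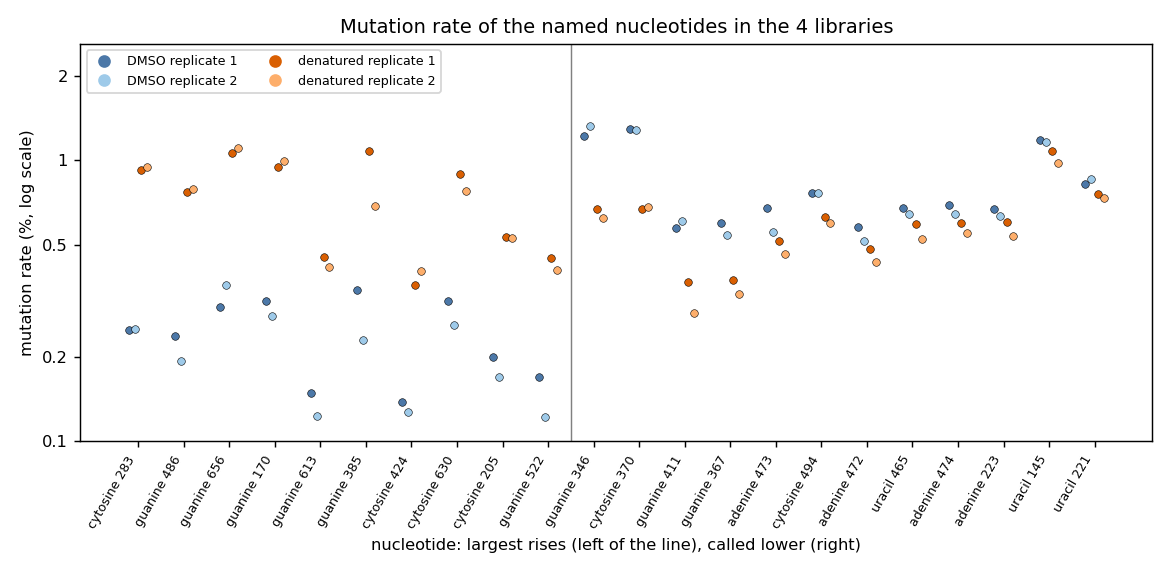
Mutation rate (%, log scale) in each of the 4 libraries at the 10 largest rises outside the terminal stretches and at 12 of the 13 nucleotides called lower there; A148, near 50%, is left off the scale. At the 10 rises and at the 12 falls the denatured points lie on one side of the DMSO points with no overlap. These nucleotides were picked by call, direction and size, which favours such separation.

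The 5 nucleotides of highest DMSO rate moved little in proportion. G120, the sixth by DMSO rate, rose more and is described below. A148 had 50.1% and 49.4% in DMSO and 46.6% and 47.4% in the denatured control, or -0.08 on the log2 scale (SE 0.028, edgeR adjusted p = 0.0195), and 52.5% ± 1.03 (SD, n = 2) with NAI. G529 had 49.4% and 49.0% in DMSO and 49.8% and 48.7% in the denatured control, a change of 0.0033 (SE 0.032, edgeR adjusted p = 0.951) that was no larger than the spread between replicates. Both sites were near 50% in every library of every condition. G239 had 7.80% and 6.46% in DMSO and 9.65% and 7.81% in the denatured control, and its change of 0.29 (edgeR adjusted p = 0.00976) was lost in DESeq2 (adjusted p = 0.139) and limma (adjusted p = 0.155) and turned to -0.09 with TMM scaling. C272, at 2.45% and 1.91% against 2.23% and 1.62%, and U412, at 2.20% and 2.06% against 2.25% and 2.15%, did not pass the test.

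In percentage points G239 gained most, with 1.60 ± 0.35 (SD, n = 2), and sites of lower rate followed. G120 in the SNORA5C part went from 2.03% and 2.21% to 3.76% and 3.57%, a gain of 1.55 points ± 0.26 (SD, n = 2; log2 change 0.79, SE 0.063). G152 went from 1.22% and 1.26% to 2.62% and 2.55%, a gain of 1.34 ± 0.076. In both, which were picked for their gain, the DMSO and the denatured values were well apart. C513, C316 and G323 gained 0.904 ± 0.16, 0.878 ± 0.12 and 0.832 ± 0.010 points, and these 5 sites kept their call in all 18 alternative fits. C316 is the C of a CpG step and went from 0.502% and 0.568% to 1.46% and 1.36%. U139, the sixth highest in the denatured control, had 1.89% and 1.97% in DMSO and 2.51% and 2.56% there, or 0.39 on the log2 scale (SE 0.058, edgeR adjusted p = 4.12e-05), but 0.01 with TMM scaling (edgeR adjusted p = 0.903). The surroundings of G120 and G152 are shown because each is a guanine before a uracil, the step with the largest median change.
G120: cuggggauaaGuuuggcugug
G152: agguccagggGuucccugggg

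5S ribosomal RNA, which has its own libraries in the series, rose too in its denatured control. Over 81 nucleotides of 5S outside its terminal stretches the median log2 change was 0.43 and 0.49, beside 0.37 and 0.39 in SLERT. Cytosines had 0.62 and 0.67, guanines 0.89 and 0.55, adenines 0.39 and 0.45, and uracils 0.24 and 0.35. Cytosines and guanines thus had the larger median changes in both RNAs, although the 2 guanine values of 5S differ by more than guanines differ from cytosines. The difference between the RNAs was not tested.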

How the data were processed

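SHAPE-MaP libraries of SLERT from PA1 cells were analysed from the 2 deposited SLERT tables, each holding the 3 conditions of 1 replicate. Per the file headers, the columns of mutations, read depth and effective depth hold whole-number counts, and the deposited mutation rate is a fraction; mutations over effective depth matched it to within 5e-07. Per the submitters' processing notes reads were demultiplexed with bcl2fastq 2.17.1.14. The build is not given in the sources used here, nor are the aligner and the mutation counter.

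Counts were tested with edgeR 4.0.16 (R 4.3.3; glmQLFit, glmQLFTest, two-sided), with log effective depth as offset and all 6 SLERT libraries in 1 fit, so that 3 groups shared the estimate of the spread. Benjamini-Hochberg adjustment ran over 693 nucleotides at a threshold of 0.05. Each standard error is the size of the log2 change divided by the root of its F statistic. On simulated counts for this comparison (654 nucleotides) it found 62% of those changed 1.25-fold. It found 100% of those changed 1.5-fold, 2-fold or 0.5-fold, with 3 false calls among 454 unchanged. The simulation drew libraries independently, gave every nucleotide the same dispersion and left most unchanged, whereas most rose in the data. Its figures may therefore not hold for these data. Class medians are of log2 rate ratios within a replicate. Each SD of a difference or gain is over the 2 values from same-numbered libraries, so it leaves out spread that those libraries share. Terminal stretches end before the first nucleotide at 0.05% or more in all 4 libraries. Named nucleotides were the 12 largest called rises with at least 100 denatured mutations, up to 15 called falls with at least 100 DMSO mutations, and the 6 highest in DMSO rate, denatured rate and gain in points, with the same direction in both replicates for the first 2 sets. Alternatives were DESeq2 1.42.0, limma 3.58.1 (pseudocount 0.5), other scalings, filters, depths, a replicate block and single libraries left out. The nucleotides compared, the classes and the named sets were chosen with earlier results of these data known. Sequences are those of the deposited tables; snoRNA lengths are from RefSeq.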

Additional observations from a re-analysis of the deposited data

How the results depend on the processing

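Higher and lower nucleotides numbered 142 and 118 with TMM scaling and 164 and 95 with median-of-ratios scaling. Both centre the changes near 0 by construction, so they do not bear on whether there was an excess of rises. The alternatives that keep the effective or read depth as the only scaling had more higher than lower nucleotides and kept the higher count within 1.5 times of 428, from 326 without DC replicate 1 to 463. The lower count was 24 with the 4 DC and DMSO libraries alone, 9 by DESeq2 and 8 by limma, and ranged from 5 to 24 with 1 library left out; the cause was not tested. Same-numbered libraries did not deviate together throughout (correlations of 0.331 for DC with DMSO, -0.058 for DC with NAI and 0.0042 for DMSO with NAI), so the number was taken as a label. With it as a replicate block 442 nucleotides were higher and 16 lower, and 427 of the 428 were shared.

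Over 35 named nucleotides and 623 refits, 553 kept direction and call, 53 lost the call, 6 gained it and 11 turned. With TMM and median-of-ratios scaling G529 turned to -0.38 and -0.33, U412 to -0.33 and -0.28 and G239 to -0.088 and -0.040; these scalings lower nearly every change by about the median, 0.36, so a smaller change turns by construction. G529 also turned to -0.013 by read depth and ranged from -0.013 to 0.019 with 1 library left out, crossing 0 at -0.0020 without DMSO replicate 2. C272 ranged from -0.43 to 0.026 with 1 library left out, and was above 0 without DMSO replicate 1 and without DC replicate 2.

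The gain in percentage points kept its sign in every alternative. For SLERT it was 0.169 as a mean and 0.183 as a median of nucleotide rates, 0.137 by read depth, 0.168 without the nucleotides over 5% in DMSO, and 0.138 to 0.162 with 1 library left out. For adenine it was 0.155, 0.194 and 0.189 by mean, by median and without those nucleotides, and 0.0585 to 0.114 with 1 library left out. For cytosine it was 0.152 by mean, 0.142 by median and 0.149 by read depth. For guanine it was 0.173 by mean, 0.142 by read depth and 0.142 to 0.167 with 1 library left out. For uracil it was 0.178 by read depth and 0.176 to 0.213 with 1 library left out. In windows of 31 nucleotides the median at 471 was 0.0036 and in windows of 71 it was 0.28; at 216 these were 0.12 and 0.33. The depth minimum of 10000 changed nothing, since all 693 nucleotides pass it.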
